A study of Oryza sativa Japonica Group with 4 samples.

Results

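The genes described here are those whose transcripts stood at least 3 times higher in 1 of the wild-type (WT) rice panicle libraries than in the other. A gene was taken when WT replicate 1 held at least 10 CPM (the count scaled to a library total of 1000000) and at least 3 times the CPM of WT replicate 2, with a count of 0 in WT replicate 2 raised to 1. The rule took 169 of the 37862 genes counted, or 1.06% of the 15881 genes with at least 10 CPM in WT replicate 1. The genes were thus selected on the measured CPM of both WT libraries. These carry the same label, so the rule marks variation inside the WT group, and the values of those libraries are a description with no test. The OsbZIP47KD libraries were not used by the rule, and their place relative to the WT libraries is the subject of the comparisons.

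The series holds 4 RNA-Seq libraries of japonica rice, cultivar TP309, made from inflorescences (panicles) 0.1 to 0.5 cm long. The OsbZIP47KD group (n = 2) is the single transgenic line 14, in which the maize ubiquitin promoter drives a hairpin RNA against part of the 3′UTR of OsbZIP47, a bZIP transcription factor gene, and the WT group (n = 2) carries no transgene. The methods call the libraries of a group biological replicates, and neither they nor the labels say how many plants went into a library or whether panicles were collected on the same day. Library totals were 3839165 and 4063036 counts in OsbZIP47KD, against 5611969 in WT replicate 1 and 5100799 in WT replicate 2.

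Plants keep a set of genes that respond within a short time to wounding, touch, pathogen molecules or water loss. Receptor-like kinases, calcium sensors and MAP kinases relay the stimulus, WRKY and other transcription factors and jasmonate carry it to the nucleus, and phenylpropanoid enzymes, oxidases and wall proteins are among the products. Repressors such as the JAZ proteins and enzymes that break down mRNA or jasmonate are commonly induced with the rest and limit how long the response lasts.

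Facts of the whole series that bear on these genes are few. By the same rule, 169 genes were higher in WT replicate 1 than in WT replicate 2 and 145 were higher in WT replicate 2 than in WT replicate 1. Between the OsbZIP47KD libraries, 414 genes were higher in replicate 2 and 114 were higher in replicate 1. Pairs of libraries from different groups gave 183 to 847 genes with the OsbZIP47KD library on top and 202 to 450 with the WT library on top. The 8 inflorescence meristem markers, among them OSH1 and OsMADS14, were counted in every library, with a summed level of 694 and 387 CPM in OsbZIP47KD and of 665 and 636 CPM in WT replicates 1 and 2. The markers did not move together. In OsbZIP47KD replicates 1 and 2, OsMADS14 was at 179 and 58.6 CPM, OSH1 at 140 and 122 CPM and APO1 at 24.0 and 36.4 CPM. The 8 green leaf markers summed to 166 and 223 CPM in OsbZIP47KD, against 234 CPM in WT replicate 1 and 321 CPM in WT replicate 2, and no marker of either list met the rule. Leaf markers too went different ways. CAB2R was at 38.6 and 59.6 CPM in OsbZIP47KD, against 76.8 and 143 CPM in WT replicates 1 and 2. RBCS3 was at 19.0 and 32.5 CPM in OsbZIP47KD, against 15.1 and 17.1 CPM in WT replicates 1 and 2. The part of these markers' cells in the levels given below was not tested, and in bulk panicles fewer cells of a type and less RNA per cell cannot be told apart. The counts of OsbZIP47 (Os06g0265400) were 1003 and 919 in OsbZIP47KD, against 471 and 261 in WT. Scaled to the library totals, these are 261 and 226 CPM in OsbZIP47KD, against 83.9 and 51.2 CPM in WT. Reads from the hairpin transgene, which carries part of this gene, may be included in that count, so it does not check the labels.

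**Figure D1:**
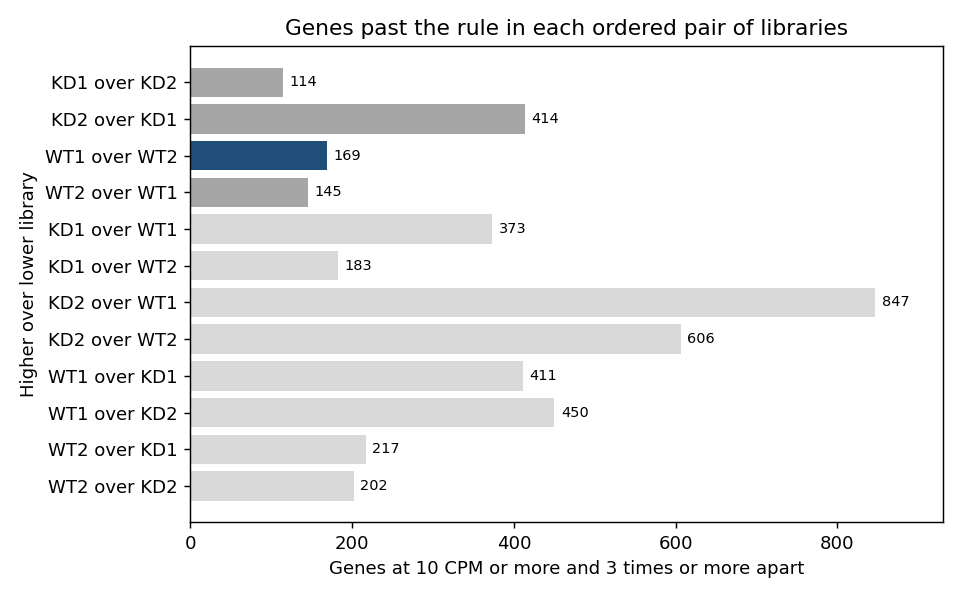
Number of genes (horizontal axis) with at least 10 CPM in the higher library and at least 3 times the CPM of the lower library, for each of the 12 ordered pairs of libraries. KD1 and KD2 are OsbZIP47KD replicates 1 and 2, WT1 and WT2 are WT replicates 1 and 2, dark grey bars are pairs within a group, light grey bars are pairs between groups, and the blue bar holds the 169 genes of WT replicate 1 over WT replicate 2.

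The ratio of WT replicate 1 to WT replicate 2 had a median of 4.53 and quartiles of 3.49 and 7.85 over the 169 genes. The ratio was under 5 in 100 genes and at least 10 in 28 genes, and 2 genes had no count in WT replicate 2. WT replicate 1 held 57 to 3770 counts per gene, and the lowest lower bound of an exact 95% counting interval on the ratio was 1.75. These intervals cover counting error only, and reads without molecular identifiers are not independent molecules. The rule chose the genes by this same ratio, so the bounds are partly set by that choice and do not test the difference. Just inside the threshold lay OsMAPKKK62 (Os01g0699600), a MAP kinase kinase kinase, at just over 3 times, Os01g0384800 at 3.01 times and Os01g0882900 at 3.02 times. Just outside lay OsPDC1 (Os05g0469600), Os05g0522600 and Os07g0526400, each at 2.99 times.

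Gene names and descriptions could be taken only from the study's own list of genes that differ between OsbZIP47KD and WT. That list holds 94 of the 169 genes, and 75 of them have a name or description there. A named gene therefore had already been chosen for a difference between the groups, and the low OsbZIP47KD levels given below for named genes are partly fixed by that choice. Of all genes with at least 10 CPM in WT replicate 1, 627 (3.95%) have a name or description from the same list. The rule took 75 of these 627 genes, and the class counts given below are to be read beside that share. Functional classes were assigned by words in these names, and the words were revised after values had been seen, so class counts are descriptions. Both OsbZIP47KD libraries lay below both WT libraries in 41 of the 75 annotated members (54.7%), against 25.5% of all genes with at least 10 CPM in WT replicate 1. Most of the latter genes are outside the study's list, and the share among the 627 annotated genes was not computed. These percentages are therefore not like for like, and nothing is read from their difference. The class counts of that order given below are parts of these 41. Of the 75 annotated genes, 50 fell into a class and 25 into none, and 14 of the 75 are described only as an expressed protein or a transposon protein.

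The phenylpropanoid class held 8 of its 9 annotated genes with at least 10 CPM in WT replicate 1, with ratios of WT replicate 1 to WT replicate 2 between 3.64 and 21.8. Phenylalanine ammonia-lyase (PAL) makes cinnamate from phenylalanine, the entry step to lignin and phenolic defence compounds. OsPAL4 (Os02g0627100) was at 1.56 and 7.38 CPM in OsbZIP47KD replicates 1 and 2, against 127 CPM in WT replicate 1 and 10.4 CPM in WT replicate 2. A second PAL gene, OsPAL04 (Os05g0427400), was at 8.86 and 14.3 CPM in OsbZIP47KD, against 141 CPM in WT replicate 1 and 14.1 CPM in WT replicate 2. For both genes WT replicate 1 stood alone, and for OsPAL04 WT replicate 2 lay between the OsbZIP47KD libraries. OsC4H1 (Os02g0467600), a cinnamate hydroxylase that acts on the product of PAL, had 7 and 6 counts in OsbZIP47KD, against 96 in WT replicate 1 and 4 in WT replicate 2.

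The genes of later steps of the pathway had lower ratios between the WT libraries. CCR21 (Os02g0180700), annotated as a cinnamoyl-CoA reductase, an enzyme of the lignin branch, was at 26.8 and 29.0 CPM in OsbZIP47KD, against 124 CPM in WT replicate 1 and 28.8 CPM in WT replicate 2. ROMT15 (Os08g0498100), a caffeoyl-CoA O-methyltransferase, was at 79.4 and 80.7 CPM in OsbZIP47KD, against 246 CPM in WT replicate 1 and 67.6 CPM in WT replicate 2. The OsbZIP47KD libraries lay on both sides of WT replicate 2 for CCR21 and above it for ROMT15, and for both genes they were close to each other. The study's functional groups place CCR21 under flavonoids and ROMT15 under ribosome biogenesis, not under phenylpropanoids. The other 3 genes of the class, named after their values were seen, were OsPAL05 (Os02g0626600), OsPAL07 (Os04g0518400) and Os4CL5 (Os08g0448000), a 4-coumarate-CoA ligase, with ratios of 8.69, 5.89 and 5.85. Summed over the 8 genes, the class held 128 and 152 CPM in OsbZIP47KD, against 826 CPM in WT replicate 1 and 145 CPM in WT replicate 2.

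Kinases numbered 9 of 36 annotated identifiers with at least 10 CPM, a pair of which carry the same name, OsRLCK253. OsMPK3 (Os03g0285800), a MAP kinase activated in defence and wounding, was at 7.55 and 9.60 CPM in OsbZIP47KD, against 78.4 CPM in WT replicate 1 and 16.7 CPM in WT replicate 2. RLCK255 (Os08g0457400), a receptor-like cytoplasmic kinase, had 3 and 17 counts in OsbZIP47KD, against 122 in WT replicate 1 and 25 in WT replicate 2. Both OsbZIP47KD libraries lay below both WT libraries for these genes, as they did for 8 of the 9 kinase identifiers. OsRLCK253 is counted under the neighbouring identifiers Os08g0374600, with 9 and 6 counts in OsbZIP47KD and 363 and 78 in WT replicates 1 and 2, and Os08g0374701, with 0 and 4 counts in OsbZIP47KD and 344 and 66 in WT replicates 1 and 2. The other kinase, WAK21 (Os02g0807900), a wall-associated kinase whose values had been seen before it was named, had 14 and 22 counts in OsbZIP47KD, against 133 in WT replicate 1 and 12 in WT replicate 2, and was the kinase with the highest ratio, 10.1. Summed over the class, the level was 42.7 and 56.1 CPM in OsbZIP47KD, against 421 CPM in WT replicate 1 and 102 CPM in WT replicate 2.

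Calcium genes numbered 3 of 17 annotated genes, and in each of them both OsbZIP47KD libraries lay below both WT libraries. ACA1 (Os03g0203700), a calcium pump of the plasma membrane type that returns the ion to rest levels, was at 8.07 and 18.5 CPM in OsbZIP47KD, against 126 CPM in WT replicate 1 and 36.9 CPM in WT replicate 2. CML22 (Os04g0492800), a calmodulin-like calcium sensor, was at 3.39 and 4.92 CPM in OsbZIP47KD, against 16.7 CPM in WT replicate 1 and 5.10 CPM in WT replicate 2. CaMBP (Os12g0547600), a calmodulin-binding protein, had 69 and 61 counts in OsbZIP47KD, against 368 in WT replicate 1 and 104 in WT replicate 2. The ratios of WT replicate 1 to WT replicate 2 were close to the threshold in all 3, between 3.22 and 3.43.

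Transcription factors were represented by 3 of 7 annotated WRKY genes, 1 of 4 C2H2 zinc finger genes and 2 of 40 genes of the class that holds NAC, MYB, bHLH and further families, while none of the 7 annotated AP2/ERF genes met the rule. With 75 of 627 annotated genes meeting the rule, the lack of AP2/ERF genes is not read as a trait of the members. OsWRKY53 (Os05g0343400), a WRKY factor induced in rice defence, was at 107 and 54.9 CPM in OsbZIP47KD, against 429 CPM in WT replicate 1 and 139.8 CPM in WT replicate 2. OsWRKY28 (Os06g0649000) was at 7.29 and 16.5 CPM in OsbZIP47KD, against 87.5 CPM in WT replicate 1 and 23.5 CPM in WT replicate 2. OsWRKY24 (Os01g0826400) was at 4.95 and 12.6 CPM in OsbZIP47KD, against 53.6 CPM in WT replicate 1 and 4.71 CPM in WT replicate 2. The WRKY genes thus differed in order, with both OsbZIP47KD libraries below both WT libraries for OsWRKY53 and OsWRKY28, and both between the WT libraries for OsWRKY24, which had the highest ratio of the 3 at 11.4.

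OsbHLH148 (Os03g0741100), a bHLH factor that works with JAZ proteins in rice, had 8 and 26 counts in OsbZIP47KD, against 203 in WT replicate 1 and 14 in WT replicate 2. ONAC022 (Os03g0133000), a NAC factor, had 0 and 4 counts in OsbZIP47KD, against 75 in WT replicate 1 and 7 in WT replicate 2. WZF1 (Os03g0764100), the C2H2 gene, was at 4.17 and 7.88 CPM in OsbZIP47KD, against 29.9 CPM in WT replicate 1 and 4.51 CPM in WT replicate 2. For OsbHLH148 and WZF1 the OsbZIP47KD libraries lay on both sides of WT replicate 2, and for ONAC022 both lay below it. OsCAF1B (Os04g0684900), a deadenylase that starts mRNA decay by removing the poly(A) tail, was at 7.55 and 25.4 CPM in OsbZIP47KD, against 70.7 CPM in WT replicate 1 and 15.9 CPM in WT replicate 2. This was the only gene of the mRNA decay class, and the OsbZIP47KD libraries were on either side of WT replicate 2 there too. None of the 9 annotated protein phosphatases or of the 3 heat shock proteins at this level met the rule. Nor did any of the 11 genes of other hormones, the 11 of carbohydrate and lipid metabolism or the 4 of photosynthesis. These classes are too small for that to be read as a trait of the members.

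The class of JAZ repressors and jasmonate or ethylene synthesis held 4 of its 13 annotated genes. OsJAZ9 (Os03g0180800), a JAZ repressor that is itself induced by jasmonate, had 4 and 7 counts in OsbZIP47KD, against 64 in WT replicate 1 and 3 in WT replicate 2. Its ratio of 19.4 rests on the 3 counts in WT replicate 2, and its 95% counting interval was 6.34 to 96.5. SPLIT-HULL (Os04g0447100), a lipoxygenase of the kind that begins jasmonate synthesis, was at 9.90 and 19.2 CPM in OsbZIP47KD, against 51.3 CPM in WT replicate 1 and 13.7 CPM in WT replicate 2. The OsbZIP47KD libraries were thus on both sides of WT replicate 2 for SPLIT-HULL and above it for OsJAZ9. CYP94C2b (Os12g0150200), a P450 that oxidises and inactivates the active jasmonate, was at 14.1 and 9.60 CPM in OsbZIP47KD, against 67.0 CPM in WT replicate 1 and 19.2 CPM in WT replicate 2. JMT2 (Os02g0719600), annotated as a carboxyl methyltransferase, was at 26.0 and 12.3 CPM in OsbZIP47KD, against 131 CPM in WT replicate 1 and 25.9 CPM in WT replicate 2. The study's functional groups place JMT2 under salicylic acid metabolism. Genes of jasmonate synthesis, repression and breakdown were thus all higher in the same WT library, the one the rule selects for, and both OsbZIP47KD libraries lay below both WT libraries for CYP94C2b alone.

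**Figure D2:**
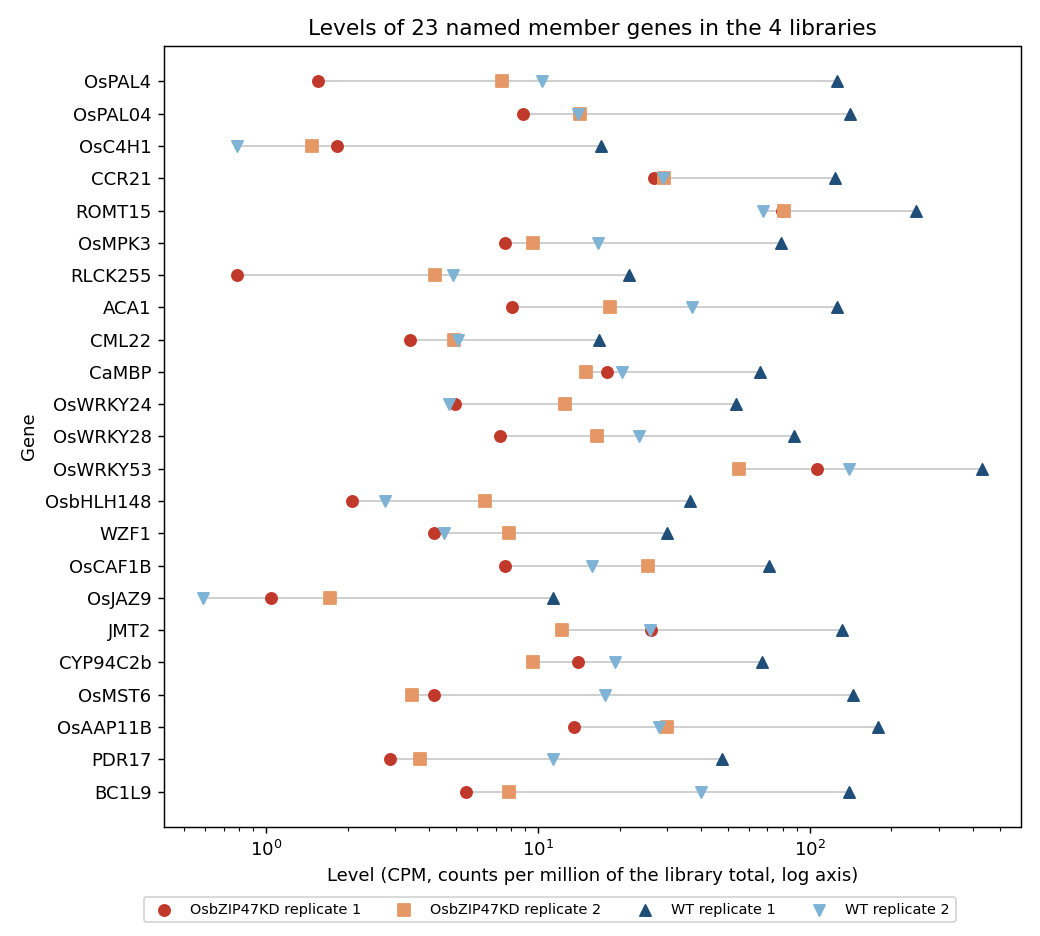
Level of 23 named genes in CPM on a log axis, with 1 symbol per library and a grey line over the range of each gene. WT replicate 1 (dark blue) is the highest library for every gene shown, as the rule and the choice of named genes favour, and WT replicate 2 (light blue) lies below, among or above the OsbZIP47KD libraries (red and orange), depending on the gene.

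Transport, wall and redox genes made up much of the remaining annotated members. OsMST6 (Os07g0559700), a monosaccharide transporter, was at 4.17 and 3.45 CPM in OsbZIP47KD, against 145 CPM in WT replicate 1 and 17.6 CPM in WT replicate 2. OsAAP11B (Os12g0181600), an amino acid transporter, was at 13.5 and 29.8 CPM in OsbZIP47KD, against 179 CPM in WT replicate 1 and 27.8 CPM in WT replicate 2. PDR17 (Os08g0384500), an ABC transporter of the pleiotropic drug resistance kind, was at 2.87 and 3.69 CPM in OsbZIP47KD, against 47.8 CPM in WT replicate 1 and 11.4 CPM in WT replicate 2. Transport genes numbered 5 of 29 annotated genes, beside 75 of 627 over all annotated genes. Both OsbZIP47KD libraries lay below both WT libraries for 3 of the 5 transport genes, OsMST6, PDR17 and, by a small margin, OsAAP11E. OsAAP11E (Os01g0882800) was near the threshold at 3.03 times, with 7.03 and 6.89 CPM in OsbZIP47KD, against 21.4 CPM in WT replicate 1 and 7.06 CPM in WT replicate 2. FCO9 (Os12g0518200), described as an integral membrane protein, had 4 and 10 counts in OsbZIP47KD, against 202 in WT replicate 1 and 7 in WT replicate 2.

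Wall genes numbered 3 of 18, all with both OsbZIP47KD libraries below both WT libraries. BC1L9 (Os10g0497700), a COBRA-like protein of a family that acts in cellulose assembly, was at 5.47 and 7.88 CPM in OsbZIP47KD, against 139.5 CPM in WT replicate 1 and 39.8 CPM in WT replicate 2. The others, C10501 (Os01g0860500) and Os01g0860800, are glycosyl hydrolases with ratios of 5.21 and 3.98. The study's functional groups place C10501 under biotic stress proteins and Os01g0860800 under glucan hydrolases, not under the cell wall. Redox genes numbered 8 of 32, and 5 of them had both OsbZIP47KD libraries below both WT libraries. OsORAP1 (Os09g0365900), an ascorbate oxidase of the cell wall space, was at 4.95 and 4.68 CPM in OsbZIP47KD, against 33.5 CPM in WT replicate 1 and 5.49 CPM in WT replicate 2. CYP709C5 (Os07g0635500), a P450, had 5 and 6 counts in OsbZIP47KD, against 98 in WT replicate 1 and 2 in WT replicate 2. RBOHI (Os11g0537400), an NADPH oxidase that makes superoxide outside the cell and whose values had been seen before it was named, had 16 and 9 counts in OsbZIP47KD, against 127 in WT replicate 1 and 25 in WT replicate 2. The OsbZIP47KD libraries were below WT replicate 2 for OsORAP1 and RBOHI and above it for CYP709C5, where WT replicate 2 was near 0.

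Other annotated genes had low counts in at least 1 library. DHS (Os02g0682300), a RING-type zinc finger protein, had 2 and 6 counts in OsbZIP47KD, against 106 in WT replicate 1 and 1 in WT replicate 2. OscytME2 (Os05g0186300), an NADP-dependent malic enzyme, had 2 and 14 counts in OsbZIP47KD, against 188 in WT replicate 1 and 12 in WT replicate 2. OsRhmbd17 (Os10g0521900), a rhomboid homologue, had 5 and 5 counts in OsbZIP47KD, against 114 in WT replicate 1 and 6 in WT replicate 2. In all 3 genes, WT replicate 1 alone held more than 14 counts. OsVQ30 (Os07g0686600), a VQ protein of a family that binds WRKY factors, had 16 and 0 counts in OsbZIP47KD, against 91 in WT replicate 1 and 18 in WT replicate 2. The most abundant annotated member in WT replicate 1 by CPM, which takes no account of length, was Os03g0353400, described only as an expressed protein, with 95.3 and 139 CPM in OsbZIP47KD, against 672 CPM in WT replicate 1 and 195 CPM in WT replicate 2. Os03g0299600, described as a wound-induced protein of the WI12 kind, was at 76.1 and 39.1 CPM in OsbZIP47KD, against 341 CPM in WT replicate 1 and 110.2 CPM in WT replicate 2. Both were named after their values were seen, and both had both OsbZIP47KD libraries below both WT libraries.

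The OsbZIP47KD libraries were then placed relative to the WT libraries gene by gene, on the log2 CPM scale. OsbZIP47KD replicate 1 was below WT replicate 2 in 81 of the 169 genes (47.9%), between the WT libraries but nearer WT replicate 2 in 60 (35.5%), nearer WT replicate 1 in 22 (13.0%) and above WT replicate 1 in 6 (3.55%). For OsbZIP47KD replicate 2 the same classes held 71 (42.0%), 61 (36.1%), 32 (18.9%) and 5 (2.96%) genes. Both OsbZIP47KD libraries thus lay on the WT replicate 2 side of the midpoint in 123 genes (72.8%), against 43.1% of the 7560 genes with at least 10 CPM in WT replicate 1 that were higher there than in WT replicate 2. Both were below WT replicate 1 in 161 genes and between the WT libraries in 66. Both were below WT replicate 2, and so below the whole WT group, in 57 genes (33.7%), against 25.5% of all 15881 genes at that level. They were on different sides of WT replicate 2 in 38 genes. The rule fixed a high value in WT replicate 1 and a low one in WT replicate 2, so distances to either library are in part set by the choice of genes.

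The median log2 ratio to WT replicate 2 was 0.07 for OsbZIP47KD replicate 1 and 0.23 for OsbZIP47KD replicate 2 over all members. This median falls between members placed differently, those in the study's list at -0.59 and -0.41 and those outside it at 0.72 and 1.07. To WT replicate 1 these medians were -2.30 and -2.05. Over all genes with at least 10 CPM in WT replicate 1, the 4 medians lay between -0.05 and -0.02. The median level of the 169 genes was 5.21 and 6.40 CPM in OsbZIP47KD, against 23.9 CPM in WT replicate 1 and 4.71 CPM in WT replicate 2, which is 20 and 26 counts against 134 and 24 counts. The place of a single gene thus often rests on few counts. Summed over all members, the level was 2203 and 2147 CPM in OsbZIP47KD, against 8434 CPM in WT replicate 1 and 1894 CPM in WT replicate 2, so both OsbZIP47KD sums were above WT replicate 2. Os03g0115800 alone decides that order, and without it the sums were 1690 and 1787 CPM in OsbZIP47KD, against 8299.9 CPM in WT replicate 1 and 1894 CPM in WT replicate 2.

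**Figure D3:**
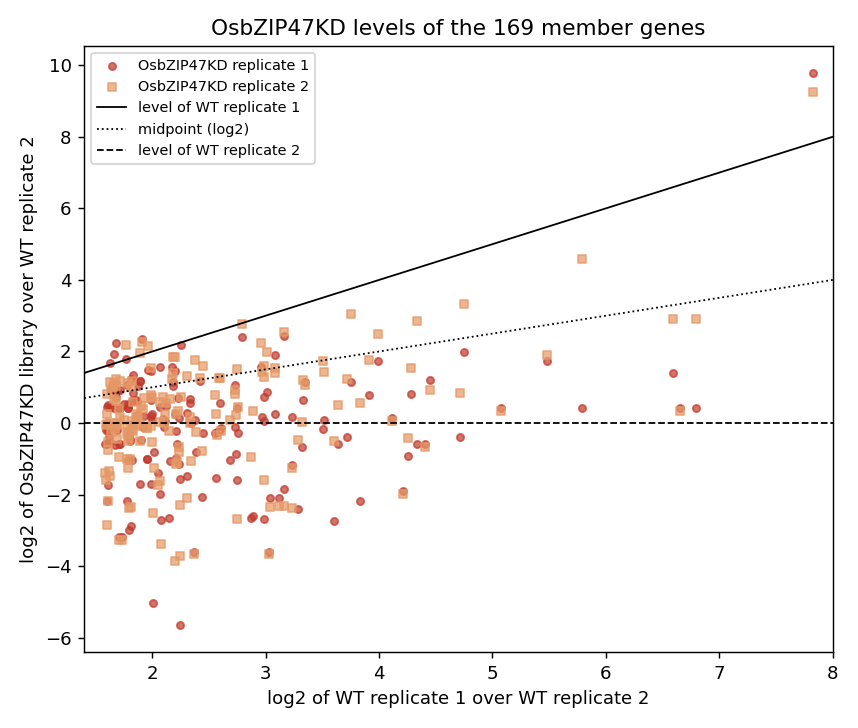
Each of the 169 genes is drawn as a circle for OsbZIP47KD replicate 1 and a square for OsbZIP47KD replicate 2, with its log2 ratio to WT replicate 2 against the log2 ratio of WT replicate 1 to WT replicate 2, and counts of 0 raised to 1. Most points lie around or under the dashed line, the level of WT replicate 2, and 8 genes have a point above the solid line, the level of WT replicate 1.

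The same placing was made for the mirror set, the 145 genes with at least 10 CPM in WT replicate 2 and at least 3 times the CPM of WT replicate 1. There OsbZIP47KD replicate 1 was above WT replicate 2 in 40 genes (27.6%), nearer WT replicate 2 in 58 (40.0%), nearer WT replicate 1 in 30 (20.7%) and below WT replicate 1 in 17 (11.7%). For OsbZIP47KD replicate 2 these classes held 47 (32.4%), 66 (45.5%), 22 (15.2%) and 10 (6.90%) genes. Both lay on the WT replicate 1 side of the midpoint in 21 genes (14.5%), against 29.9% of the 9580 genes with at least 10 CPM in WT replicate 2 that were higher there. The medians of the log2 ratio to WT replicate 2 were -0.47 and -0.44 for OsbZIP47KD replicates 1 and 2, and to WT replicate 1 they were 1.55 and 1.66. In both sets, then, the OsbZIP47KD libraries were nearer to WT replicate 2 than to WT replicate 1 at the median, whichever WT library was the higher. No test was made of this difference, since there is 1 library on each side and the sets share all 4 libraries.

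**Figure D4:**
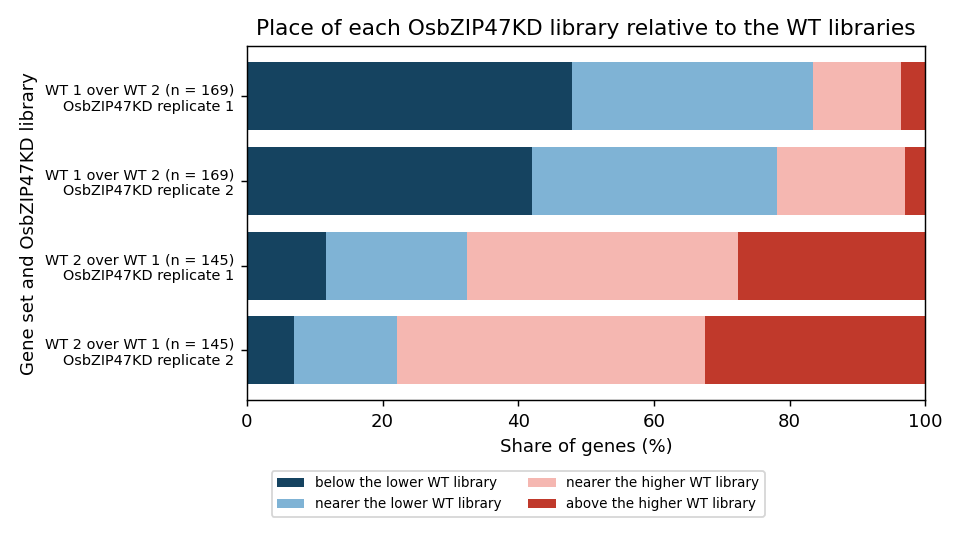
Share of genes (horizontal axis, percent) in which each OsbZIP47KD library was below the lower WT library, nearer the lower, nearer the higher or above the higher WT library. The upper bars are the 169 genes higher in WT replicate 1, where 47.9% and 42.0% lie below the lower library, and the lower bars are the 145 genes of the mirror set, where 11.7% and 6.90% do.

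The members in the study's list of differing genes and those outside it were placed differently, as the list's own choice would give. Of the 94 listed members, 74 and 62 were below WT replicate 2 in OsbZIP47KD replicates 1 and 2, none lay nearer WT replicate 1 without passing it, and 1 was above WT replicate 1. Of the 75 members outside the list, 7 and 9 were below WT replicate 2, 41 and 30 were nearer WT replicate 2, 22 and 32 were nearer WT replicate 1, and 5 and 4 were above WT replicate 1. The median log2 ratios to WT replicate 1 were -3.28 and -2.97 for listed members, and -1.25 and -1.29 for the others. The list was drawn from all 4 libraries, so neither group of members is independent of the OsbZIP47KD values. The study's list held 26 of the 145 mirror genes.

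In 8 members at least 1 OsbZIP47KD library was above WT replicate 1. Os03g0115800, an expressed protein with no symbol, had 1970 and 1463 counts in OsbZIP47KD, against 751 in WT replicate 1 and 3 in WT replicate 2, the highest ratio of all members at 228. This gene was near absent in 1 WT library and abundant in the other 3 libraries. Os03g0120425 had 42 and 58 counts in OsbZIP47KD, against 60 in WT replicate 1 and 16 in WT replicate 2. Os03g0832800 had 85 and 84 counts in OsbZIP47KD, against 91 in WT replicate 1 and 22 in WT replicate 2. After scaling to the library totals, these were the only members in which both OsbZIP47KD libraries exceeded both WT libraries, 3 genes (1.78%) against 19.4% of all genes with at least 10 CPM in WT replicate 1. All genes of this paragraph were named after their values were seen, and the other 5 have no name in the sources used here.

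The members were also compared between the OsbZIP47KD libraries, which the rule did not use. OsbZIP47KD replicate 2 was above OsbZIP47KD replicate 1 in 95 members (56.2%), against 51.3% of all genes with at least 10 CPM in WT replicate 1, and the median log2 ratio of replicate 2 to replicate 1 was 0.18, against 0.01 over those genes. The libraries were at least 3 times apart in 22 members, 19 with replicate 2 higher and 3 with replicate 1 higher. That is 13.0% of members against a background of 1.08% of genes at that level, but the members have low counts in these libraries. Among genes with a mean of 3.26 to 11.0 CPM in OsbZIP47KD, the range of the middle quartiles of the members, 8 of 88 members (9.09%) and 15.8% of 7964 genes were that far apart, so the members' share was not above that of genes of the same level.

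The annotated members with the widest gap between the OsbZIP47KD libraries were taken in each direction, 4 and 4, so both directions are shown by choice. RLCK255, OscytME2, Os07g0688700 and Os12g0517800 were higher in replicate 2, the last 2 described as retrotransposon proteins with 0 counts in replicate 1 and 6 in replicate 2. OsVQ30, OsDSR3 (Os01g0975000), Os06g0317200 and Os01g0384800 were higher in replicate 1. OsDSR3, with 11 and 2 counts in OsbZIP47KD replicates 1 and 2, against 134 in WT replicate 1 and 13 in WT replicate 2, is typical in that the gap rests on few counts. Os01g0384800 is the exception, with 153 and 61 counts in OsbZIP47KD replicates 1 and 2, against 766 in WT replicate 1 and 231 in WT replicate 2.

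The members were spread over all 12 chromosomes, at 0.644% (chromosome 6) to 1.33% (chromosome 4) of the genes with at least 10 CPM in WT replicate 1. Some identifiers may share reads. There were 28 runs of members next to each other in the order of identifiers, holding 58 members, the longest of 3, so the 169 identifiers stand for 139 separate places. In 14 members the counts of a neighbouring member agreed within 10% or 2 counts in every library. Os04g0531500, described as a receptor-like kinase, and its neighbour Os04g0531600, which has no annotation here, had the same counts in every library. These were 30 and 58 in OsbZIP47KD, against 341 in WT replicate 1 and 80 in WT replicate 2. BC1L9, OsPAL05, OsORAP1 and RLCK5 (Os01g0114100) also have such a partner, and their values are uncertain to that extent. With 1 member kept from each run, the share with both OsbZIP47KD libraries on the WT replicate 2 side was 69.1%.

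The question of the study's own design, whether OsbZIP47KD and WT panicles differ, was asked of these genes in a fit over all 25289 genes that passed the count filter. Of the 169 members 155 were tested, 2 were called lower in OsbZIP47KD and 0 higher by edgeR's quasi-likelihood test (Benjamini-Hochberg adjusted p under 0.05), against 0.522% of all genes called lower and 0.127% called higher. The members called were RLCK5, with 2 and 2 counts in OsbZIP47KD, against 88 in WT replicate 1 and 24 in WT replicate 2 (log2 fold change -4.35, adjusted p = 0.0475), and its neighbour Os01g0114150, whose counts match within 2 in every library. At an unadjusted p under 0.05, 37 members (23.9%) were lower and 0 higher, against 7.27% lower and 6.85% higher over all genes tested. DESeq2 called 18 members (11.6%) lower and 0 higher at an adjusted p under 0.05, against 1.18% lower and 0.55% higher over all genes. The fitted log2 fold change was below 0 in 142 members and above 0 in 13, with a median of -1.32 against 0.02 over all genes tested. Because the rule used both WT libraries, nothing is read from these counts about OsbZIP47.

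The count depends on which WT library stands for the group, as a rule that sets the WT libraries apart fixes beforehand, and the following values carry no further reading. Without WT replicate 2, 120 of 169 members were called lower in OsbZIP47KD and 1 higher, against 2.99% lower and 1.35% higher over all genes. Without WT replicate 1, 7 of 155 members were called lower and 4 higher, against 0.658% lower and 0.308% higher over all genes. The lone WT library was assumed to vary like the OsbZIP47KD group.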

How the data were processed

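Total RNA of panicles was depleted of ribosomal RNA, sequenced as paired reads and aligned by the authors to the RAP-DB rice genome with STAR v2.5.3a, and raw counts per gene were deposited for all 4 libraries. The counting program, its strand setting and the annotation version are not given in the sources used here, so overlapping and antisense genes cannot be told apart. Another table deposited by the authors holds normalized values, a score equal to the count times 1 factor per library, rounded, for 29532 genes and blank for 8330; these were used only as an alternative scaling. The submitters' notes name edgeR v3.82.0.

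CPM were counts over the column total, and library totals of 3839165 to 5611969 counts set the precision. Members and lists were chosen with earlier results of these data known. The test was edgeR v4.0.16 (R v4.3.3), robust quasi-likelihood with TMM factors of 0.952 to 1.053, filterByExpr (count 10, total 15) and no replicate block. It was also run on counts simulated from the means and spread of these libraries, which does not check it for genes chosen by the rule. Ratio intervals are exact binomial at 95%, with no allowance for the choice of genes by that ratio. DESeq2 v1.42.0 and the other settings are alternatives. P-values measure the spread between these libraries.

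Named genes were drawn mainly from these choices of annotated members: the 12 with the highest ratio, up to 4 per class by CPM in WT replicate 1, the 6 with the highest OsbZIP47KD mean relative to WT replicate 1, the 3 on each side of the threshold, and the 4 with the widest OsbZIP47KD gap in each direction. Members described only as an expressed protein were left out of that choice. The genes described are not the full set so chosen. OsRFPH2-3, Os02g0814000, OsNADPH1, Os05g0438500, OsRH52A, EP and Os12g0568100 were chosen but are not described, and other genes were added after their values were seen. Promoter motifs, planned as a description, were not analysed here, and no coordinates are given.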

Additional observations from a re-analysis of the deposited data

How the results depend on the processing

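With a ratio of at least 2 the rule took 562 genes, with at least 5 it took 69, with a minimum of 5 CPM it took 306 and with 20 CPM 103. TMM-scaled CPM gave 200 genes, the deposited normalized values 195 and thinning to the smallest total 190. The mean of the OsbZIP47KD medians over WT replicate 2 (log2, 0.15) was 0.41 at a ratio of at least 5, -0.15 at 20 CPM, and 0.07 to 0.23 with each OsbZIP47KD library alone. The median of OsbZIP47KD replicate 2 over replicate 1 (log2, 0.18) was 0.71 at a ratio of at least 5. The share of genes with both OsbZIP47KD libraries on the WT replicate 2 side (72.8%) was 86.4% at 20 CPM, an alternative that, like the single member per run, was chosen after seeing the data.

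Calls over all genes, higher and lower in OsbZIP47KD, were 32 and 132. They were 52 higher with library size scaling, 236 and 551 with no filter, 139 and 298 with DESeq2, 355 and 440 with edgeR's exact test, and 186 and 410 with a replicate block. Members called lower (2) were 1 with RLE factors, 7 with no filter, 0 when genes had to reach 1 CPM in 2 or more libraries, 18 with DESeq2, 40 with the exact test and 24 with the replicate block. With each library left out in turn, calls ranged over 21 to 382 higher and 49 to 850 lower for all genes, and over 0 to 4 higher and 0 to 120 lower for members. The replicate numbers were not taken to pair the libraries, since the labels state no shared batch. The same-numbered deviations correlated at 0.038 across genes, which cannot exclude a pairing that affects only some genes. The cause of these shifts was not tested. The planned motif search on 1 strand was not run. Depth limits single genes most, with a median of 20 and 26 counts per member in OsbZIP47KD.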
